A study of Mus musculus with 6 samples.

Results

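The Schlafen genes of the mouse lie side by side on chromosome 11 and encode proteins named for the growth arrest that the first of them caused in T cells. All 7 genes of the family considered here, Slfn1, Slfn2, Slfn3, Slfn4, Slfn5, Slfn8 and Slfn9, were found on the array, each through 1 probe set that the array annotation gives to that gene alone, out of 19938 genes measured in the same way. They were chosen by name. The values came from 6 whole-transcript arrays of total RNA from established mouse cell lines, in this order for each line: NIH3T3 (an embryonic fibroblast line) after 4 h of interferon-beta (IFN-β) and unstimulated, L929 (a connective tissue fibroblast line) after 4 h of IFN-β and unstimulated, and RAW264.7 (labelled a macrophage line) after 4 h of IFN-β and unstimulated. No group carried a genetic change that the labels record, and neither the dose nor the source of the IFN-β is given in the sources used here. Each group was 1 array, so a difference within a line has no error, and the 3 lines were the replicates wherever a test was made.

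IFN-β is a type I interferon. It binds a receptor on the cell surface, whose kinases Jak1 and Tyk2 activate transcription factors, among them Stat2, which joins Irf9 in a complex that binds interferon-stimulated response elements in the promoters of induced genes. Schlafen proteins share an N-terminal core and fall into short forms (Slfn1, Slfn2), intermediate forms (Slfn3, Slfn4) and long forms with a helicase-like C-terminal part (Slfn5, Slfn8, Slfn9). In mice they are best known from T cells and from monocytes and macrophages, where they have been linked to quiescence and differentiation.

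Levels are deposited on the log2 scale after robust multi-array averaging (RMA), on which a difference of 1 is a doubling. The median gene had a log2 level of 5.49 on the array of stimulated NIH3T3 and between 5.07 and 5.22 on the other 5 arrays, so that the median change over all genes was 0.17 for NIH3T3, -0.05 for L929 and -0.03 for RAW264.7. The lines matched their labels. The 10 macrophage markers had levels from 7.38 to 12.04 on the stimulated RAW264.7 array and from 7.37 to 12.07 on the unstimulated one, against at most 6.02 on any fibroblast array. The 10 fibroblast markers had medians of 10.35 and 10.63 in stimulated and unstimulated NIH3T3, 7.96 and 8.28 for L929, and 4.66 and 4.64 for RAW264.7, but Dcn and Thy1 were low in L929, at 3.41 and 4.96 without IFN-β. Medians of the 7 lymphocyte markers measured lay between 3.62 and 4.19, and those of the 6 epithelial markers between 4.80 and 5.43. In bulk RNA, a larger share of responding cells and more RNA in each cell cannot be told apart.

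With IFN-β, Slfn8 and Slfn9 exceeded 3-fold in each of the 3 lines, 2 of 7 members, as did 0.311% of all genes. Slfn2, Slfn4 and Slfn5 passed 3-fold in L929 and RAW264.7 and reached at most 1.46-fold in NIH3T3, and Slfn1 and Slfn3 passed 3-fold in RAW264.7 alone. At least 3-fold higher with IFN-β were 2 of the 7 genes in NIH3T3, where 0.476% of all genes were, 5 of 7 in L929, where 0.893% were, and 7 of 7 in RAW264.7, where 0.617% were. The median log2 change of the 7 genes was 0.51 for NIH3T3, 3.14 for L929 and 2.19 for RAW264.7.

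**Figure D1:**
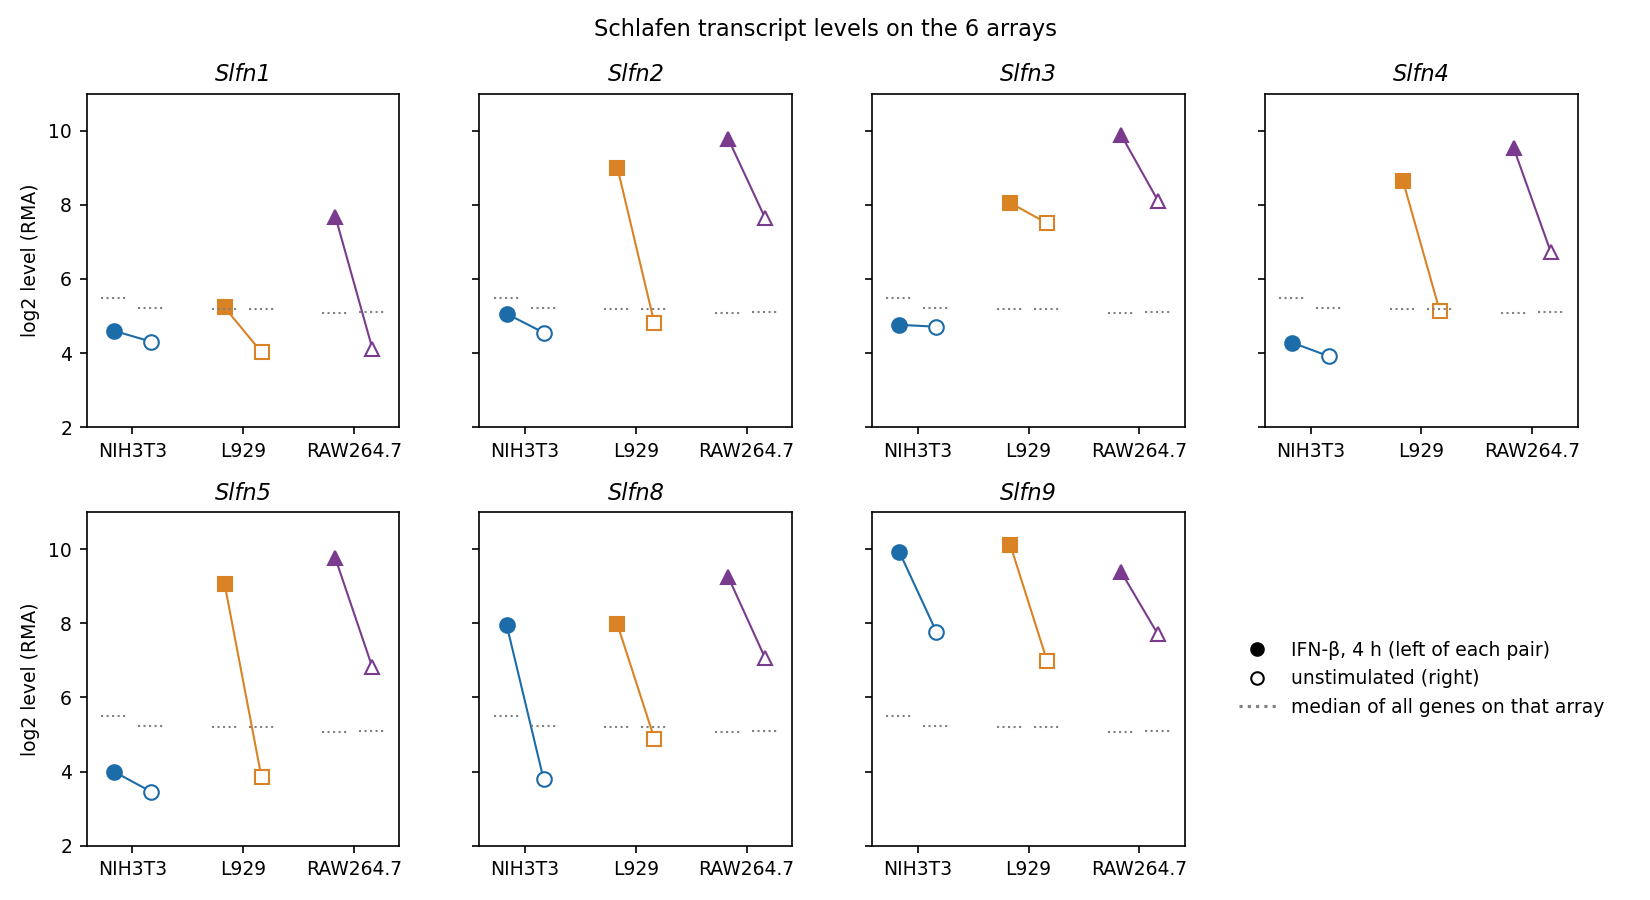
Log2 level of each Schlafen gene (vertical axis) on the 6 arrays, with stimulated arrays as filled symbols at the left of each pair and unstimulated arrays as open symbols at the right; dotted marks are the median of all genes on that array. Slfn8 and Slfn9 show steep lines in all 3 cell lines, whereas the NIH3T3 pairs of the other 5 genes stay between 3.46 and 5.06.

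The promoter windows of RefSeq (GRCm38.p6, 250 bases before to 50 after the annotated start) were searched to set the responses beside sequence at the start of each gene. All 7 members had a window. The core of the interferon-stimulated response element, GAAA, any 2 bases and GAAA on either strand, was found in Slfn5, Slfn8 and Slfn9, and in 3.44% of all 32851 promoter windows. In Slfn8 and Slfn9 it lay at -48 to -39 and at -45 to -36 from the start, on the opposite strand, and in Slfn5 at -155 to -146, inside a run rich in A. A second, overlapping window of Slfn8 is also listed. The windows of Slfn8 and Slfn9 were 84.9% identical over 292 aligned bases, against at most 64.4% for any other of the 21 pairs. The following 60 bases, read 5′ to 3′ along each gene, hold the core in capitals.
Slfn8 (chr11:83020824-83020883, minus strand): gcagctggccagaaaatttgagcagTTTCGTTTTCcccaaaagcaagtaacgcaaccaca
Slfn9 (chr11:82991841-82991900, minus strand): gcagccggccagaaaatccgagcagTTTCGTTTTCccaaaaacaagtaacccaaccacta
Slfn5 (chr11:82951922-82951981, plus strand): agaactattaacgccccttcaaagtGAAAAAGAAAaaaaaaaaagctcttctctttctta

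The windows of Slfn1, Slfn2, Slfn3 and Slfn4 did not hold that core, and the gamma-activated site TTCNNNGAA, present in 8.3% of all windows, was in 0 of the 7. The longest run of letters present in at least 4 of the 7 windows was ACTTCCTGG, found in exactly these 4 genes, between 74 and 34 bases before the start, and on either strand in 0.843% of all windows.  This run was picked after the sequences were seen, and the 4 windows with it hold no core that it could overlap. Capitals mark it below. Each match is a description of letters and not of binding.
Slfn1 (chr11:83116721-83116780, plus strand): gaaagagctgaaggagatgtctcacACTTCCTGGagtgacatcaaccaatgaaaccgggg
Slfn2 (chr11:83065032-83065091, plus strand): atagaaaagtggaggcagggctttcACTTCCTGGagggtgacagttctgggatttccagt
Slfn3 (chr11:83191263-83191322, plus strand): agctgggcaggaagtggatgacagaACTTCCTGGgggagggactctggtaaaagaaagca
Slfn4 (chr11:83175088-83175147, plus strand): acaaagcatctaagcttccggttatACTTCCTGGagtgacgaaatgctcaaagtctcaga

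**Figure D2:**
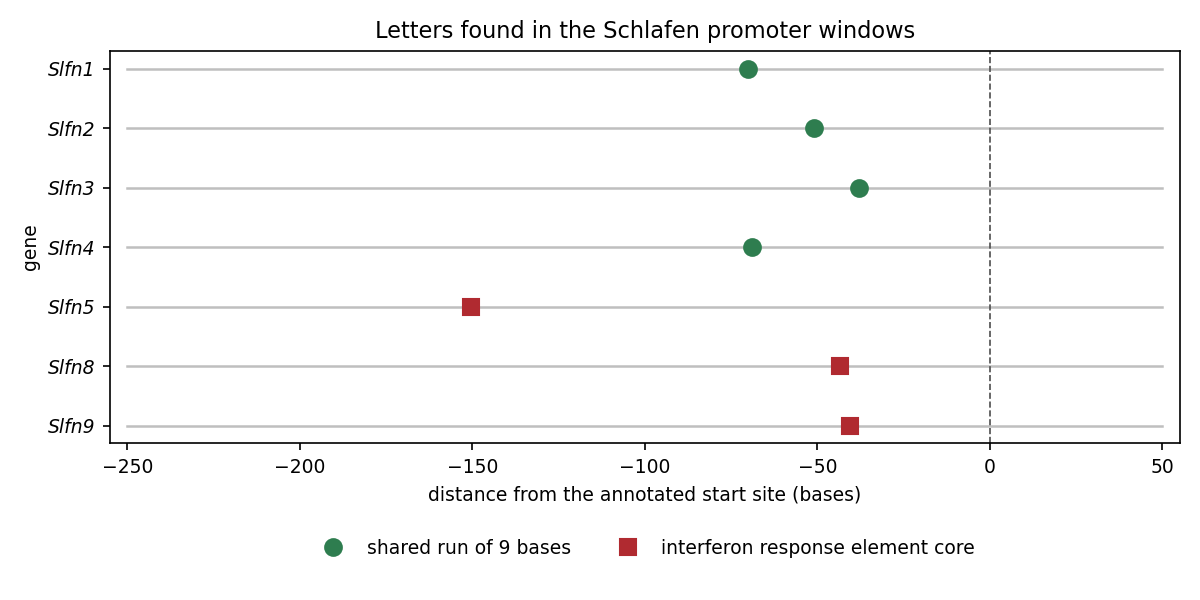
Position of the letters found in the promoter window of each Schlafen gene, as distance in bases from the annotated start (dashed line); squares mark the response element core and circles the shared run of 9 bases. The core appears in Slfn5, Slfn8 and Slfn9, and the shared run in Slfn1 to Slfn4.

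The short forms behaved unlike each other. Slfn1 (probe set 10379633), the member whose expression first stopped T cell growth, had log2 levels of 4.60 in stimulated and 4.31 in unstimulated NIH3T3, 5.23 and 4.02 for L929, and 7.68 and 4.12 for RAW264.7. Its unstimulated levels lay within 0.29 of each other and below the median gene of each array, and a single array, that of stimulated RAW264.7, stood clear of the rest. The change was 11.7-fold in RAW264.7, 2.31-fold in L929 and 1.22-fold in NIH3T3, where the log2 change of 0.29 became 0.02 with arrays centred on their medians and -0.02 after quantile normalization. Among all genes it was the 26th largest increase in RAW264.7.

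Slfn2 (10379630), whose loss in mice leaves T cells and monocytes unable to stay quiescent, had log2 levels of 5.06 in stimulated and 4.55 in unstimulated NIH3T3, 9.0 and 4.81 for L929, and 9.78 and 7.64 for RAW264.7. In the absence of IFN-β the macrophage line stood 2.83 above L929 on the log2 scale and 3.09 above NIH3T3. With IFN-β the gap to L929 was 0.78 and that to NIH3T3 was 4.72. Slfn2 was 18.3-fold higher with IFN-β in L929 and 1.43-fold in NIH3T3. In RAW264.7 it was 4.42-fold higher. The log2 change of 0.51 in NIH3T3 became 0.24 with centred arrays and 0.20 after quantile normalization.

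Of the intermediate forms, Slfn3 (10379646), studied in T cells and, in rat, in the differentiation of gut epithelium, had the smallest mean change of the family. Its log2 levels were 4.76 in stimulated and 4.71 in unstimulated NIH3T3, 8.05 and 7.50 for L929, and 9.89 and 8.11 for RAW264.7. L929 and RAW264.7 were high already without IFN-β, by 2.79 and 3.40 over NIH3T3 on the log2 scale. The stimulated level was 3.42-fold the unstimulated one in RAW264.7 and 1.47-fold in L929. In NIH3T3 the log2 change was 0.05, and it was -0.22 with centred arrays and -0.25 after quantile normalization.

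Slfn4 (10379636), a gene of myeloid cells in mice, had log2 levels of 4.28 in stimulated and 3.91 in unstimulated NIH3T3, 8.64 and 5.12 for L929, and 9.52 and 6.73 for RAW264.7. Its unstimulated levels were thus spread evenly, with RAW264.7 above L929 by 1.61 and L929 above NIH3T3 by 1.22. IFN-β was followed by levels 11.4-fold higher in L929, 6.9-fold higher in RAW264.7 and 1.3-fold higher in NIH3T3, where the log2 change of 0.37 became 0.10 with centred arrays and 0.06 after quantile normalization.

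Among the long forms, Slfn5 (10379615), a nuclear protein, had the largest change of any member in any line. Log2 levels were 4.00 in stimulated and 3.46 in unstimulated NIH3T3, 9.06 and 3.84 for L929, and 9.75 and 6.81 for RAW264.7. Both NIH3T3 arrays placed it below the lower quartile of all genes, and whether those levels stand above background was not tested. In L929 Slfn5 was 37.1-fold higher with IFN-β, the 33rd largest increase of all genes there, and in RAW264.7 it was 7.69-fold higher. The unstimulated L929 level was also low, at percentile 26.1 of all genes, and was not set against background. The change in NIH3T3 was 1.46-fold, a log2 change of 0.54 that became 0.27 with centred arrays and 0.22 after quantile normalization.

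Slfn8 (10389143), a long form studied in T cell growth, was the one member whose change was largest in NIH3T3. Its log2 levels were 7.96 in stimulated and 3.80 in unstimulated NIH3T3, 7.97 and 4.89 for L929, and 9.25 and 7.06 for RAW264.7. The stimulated fibroblast lines ended within 0.01 of each other, although L929 lay 1.08 above NIH3T3 without IFN-β. Slfn8 was 17.8-fold higher in NIH3T3, the 19th largest increase of all genes on that pair of arrays, 8.5-fold higher in L929 and 4.56-fold higher in RAW264.7. The unstimulated NIH3T3 level was low, at percentile 25.2 of all genes, and was not set against background.

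Slfn9 (10389134), the neighbour and closest relative of Slfn8 by promoter sequence among the 7, was well above the median gene in every line. Its log2 levels were 9.92 in stimulated and 7.77 in unstimulated NIH3T3, 10.12 and 6.98 for L929, and 9.39 and 7.70 for RAW264.7. Lines differed by at most 0.73 with IFN-β and 0.79 without it, the narrowest ranges of the family on the stimulated arrays. Slfn9 was also the one member whose stimulated level was lowest in RAW264.7. The changes were 4.47-fold in NIH3T3, 8.84-fold in L929 and 3.22-fold in RAW264.7. Slfn8, Slfn9 and the pseudogene Slfn10-ps are related sequences, and signal shared between their probe sets was not tested.

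**Figure D3:**
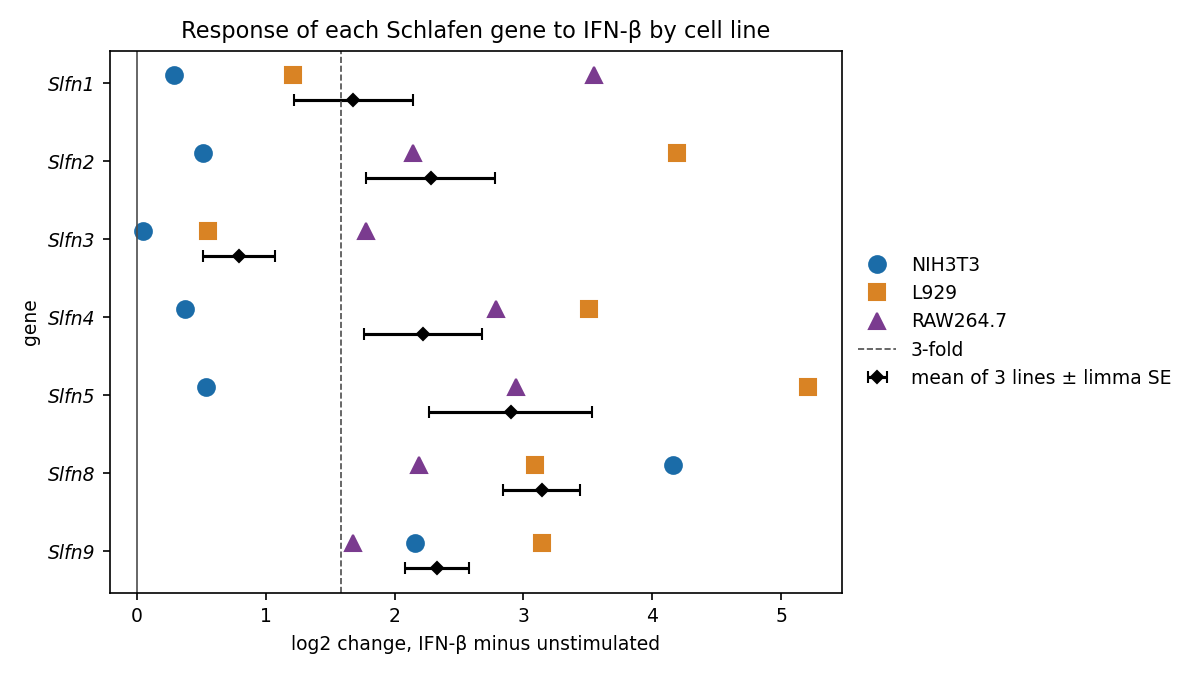
Log2 change with IFN-β (horizontal axis) of each Schlafen gene in NIH3T3, L929 and RAW264.7, with the mean of the 3 lines and its limma standard error as a diamond and bar; the dashed line is 3-fold. The NIH3T3 point lies at 0.54 or less for 5 genes and at 4.16 and 2.16 for Slfn8 and Slfn9.

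A shared effect of IFN-β was then tested with limma on the 3 array pairs, keeping the cell line as a block. Slfn8 rose by 3.14 ± 0.30 on the log2 scale, averaged over lines (SE, n = 3 lines, limma adjusted p = 0.000801) and Slfn9 by 2.33 ± 0.25 (SE, n = 3 lines, limma adjusted p = 0.00145), both higher in 3 of 3 lines. These were 2 of the 7 members, where 0.732% of all genes passed as higher at an adjusted p under 0.05 and 0 passed as lower. The SD of the change between lines was 0.99 for Slfn8 and 0.74 for Slfn9. The SE given is that of limma, which draws each gene toward the spread of all genes. For both genes it is smaller than the SE that their own SD over the 3 lines would give. Both calls were lost with every probe set on the array tested together, where their limma adjusted p was 0.101 and 0.12, and without the line as a block, where it was 1.0 and 0.273.

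The other 5 members did not pass. The mean log2 change was 2.90 ± 0.63 for Slfn5 (SE, n = 3 lines, limma adjusted p = 0.104), with an SD between lines of 2.34, the widest of the family. For Slfn4 it was 2.22 ± 0.46 (limma adjusted p = 0.0772, SD 1.64) and for Slfn2 2.28 ± 0.50 (limma adjusted p = 0.116, SD 1.84). Slfn1 had 1.68 ± 0.46 (limma adjusted p = 0.328, SD 1.68) and Slfn3 had 0.79 ± 0.28 (limma adjusted p = 0.658, SD 0.89). All 5 had positive changes in 3 of 3 lines as deposited, which 15.5% of all genes did. Slfn3 with centred arrays, and Slfn1 and Slfn3 after quantile normalization, had a negative change in NIH3T3. Without the NIH3T3 arrays, 5 members passed, Slfn2, Slfn4 and Slfn5 beside Slfn8 and Slfn9, with mean log2 changes of 3.17, 3.15 and 4.08 in the other lines and limma adjusted p-values of 0.00945, 0.00046 and 0.00406. The same 5 passed without the RAW264.7 arrays, and Slfn8 and Slfn9 alone without those of L929. In the fit without RAW264.7, Slfn2, Slfn4 and Slfn5 had changes of 0.51, 0.37 and 0.54 in NIH3T3. Their changes in L929 were 4.19, 3.51 and 5.21. A pass there does not show that each remaining line responded. The SE of limma draws each gene toward the spread of all genes and understates the spread of members whose lines differ this much.

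Whether a line responded unlike the other 2 was tested with an interaction term, 1 fit for each line, 21 tests over the members. One passed. Slfn1 changed by 3.55 in RAW264.7, against a mean of 0.75 in the fibroblast lines, a difference of 2.80 ± 0.49 on the log2 scale (SE, limma adjusted p = 2.51e-05), where 0.0802% of all genes passed as larger in RAW264.7. That call was lost with arrays centred on their medians, with a difference of 2.96 and a limma adjusted p of 0.203, and after quantile normalization, with 2.82 and 0.455. These fits have 1 residual degree of freedom and rest on 1 pair of arrays for the line in question. In the RAW264.7 fit the SE of 0.49 was pooled over all genes and was the same for every member. It does not measure the spread of Slfn1 itself.

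The smaller changes in NIH3T3 did not pass. Against the mean of the other lines, the NIH3T3 change was lower by a log2 difference of -3.54 ± 0.75 for Slfn5 (SE, limma adjusted p = 0.497), of -2.78 ± 0.37 for Slfn4 (limma adjusted p = 0.146) and of -2.65 ± 0.69 for Slfn2 (limma adjusted p = 0.497). Slfn8 differed the other way, by 1.52 ± 0.41 (limma adjusted p = 0.497). In that fit 0.00502% of all genes passed as smaller and 0 as larger. In L929 the change of Slfn5 was 3.47 ± 0.73 above the mean of the other lines (limma adjusted p = 0.266) and that of Slfn2 2.86 ± 0.56 above it (limma adjusted p = 0.192). Both passed with centred arrays, a setting that gave more calls over all genes than the values as deposited. Neither passed after quantile normalization, with a filter at the median level or with the mean over probe sets. The shares that follow are of the fit as deposited. In the L929 fit 0.0552% of all genes passed as larger and 0.015% as smaller.

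NIH3T3 itself responded to IFN-β. The 7 measured reference genes that interferon is known to induce were Ifit1, Ifit3, Mx1, Oasl2, Rsad2, Rtp4 and Bst2. All 7 were at least 3-fold higher in NIH3T3, as were 0.476% of all genes. In RAW264.7, 5 of the 7 were, with Rtp4 at 2.51-fold and Bst2 at 2.11-fold. All 7 rose across the lines, where 0.732% of all genes passed as higher. The log2 changes of the 7 in NIH3T3 ran from 3.83 for Rsad2 to 6.64 for Ifit1. Slfn8, with 4.16, lay inside that range and the other members below it. Isg15 was not analysed here. Over all genes, 62 were at least 3-fold higher in all 3 lines, and 29 in L929 and RAW264.7 but not in NIH3T3. Oas1a, Oasl1 and Oas3 were among the 29, at 1.28-fold, 1.52-fold and 1.22-fold in NIH3T3.

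The signalling genes were described as a list of 11 measured genes. Of the 11, 5 rose across the lines and 0 fell, where 0.732% of all genes passed as higher and 0 as lower. The median of their mean log2 changes was 0.78, against 0.03 over all genes. Stat2 rose by 3.13 and Irf9, its partner in the DNA-binding complex, by 2.22, with log2 changes in Irf9 of 2.75 for NIH3T3, 3.23 for L929 and 0.68 for RAW264.7. The transcription factor genes Irf1 and Irf7 rose by 2.49 and 3.96 and the feedback inhibitor Usp18 by 5.56, with limma adjusted p-values from 7.67e-05 to 0.0293 for the 5 genes. Ifnar1, Ifnar2, Jak1, Tyk2, Ifnb1 and Socs1 did not pass.

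The genes just outside the cluster did not pass. In chromosomal order the measured genes run Slfn5os, Slfn5, Slfn9, Slfn8, Slfn10-ps, Slfn2, Slfn1, Slfn4 and Slfn3. Of the 5 measured genes on each side, from Rad51d to Unc45bos and from Ap2b1 to Mmp28, 0 of 10 passed in limma across the lines, with 0 of 10 at an unadjusted p under 0.05, and 0 of 10 were 3-fold higher in any line. Of all genes, 0.732% passed as higher, 1092 of 19938 had an unadjusted p under 0.05 and 1.1% were 3-fold higher in at least 1 line, so that these counts of 0 do not set the flanking genes apart. Their log2 changes ran from -0.66 to 0.68. Within the cluster the genes at least 3-fold higher in NIH3T3, Slfn9 and Slfn8, are neighbours. Slfn10-ps, next to Slfn8, also rose (mean log2 change 1.75, limma adjusted p = 0.00763), by 1.09 for NIH3T3, 2.55 for L929 and 1.61 for RAW264.7.

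Slfn5os, a non-coding gene that overlaps Slfn5, had log2 changes of 0.61 for NIH3T3, -0.16 for L929 and 0.25 for RAW264.7 and did not pass (limma adjusted p = 0.964). Its levels in L929 were 3.74 with IFN-β and 3.90 without, on the arrays where Slfn5 changed 37.1-fold. Slfnl1, a related gene on another chromosome, did not pass either (limma adjusted p = 0.964), and Slfn14 was not analysed here. Slfn2 has been tied to the protection of tRNA from cleavage in mouse T cells. Of 5 measured genes of tRNA stability and cleavage, Rnh1, Elac1, Elac2, Nsun2 and Trdmt1, 0 passed in limma and 0 had an unadjusted p under 0.05, with mean log2 changes between -0.35 and 0.09, which at the shares over all genes given above does not set the 5 apart.

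**Figure D4:**
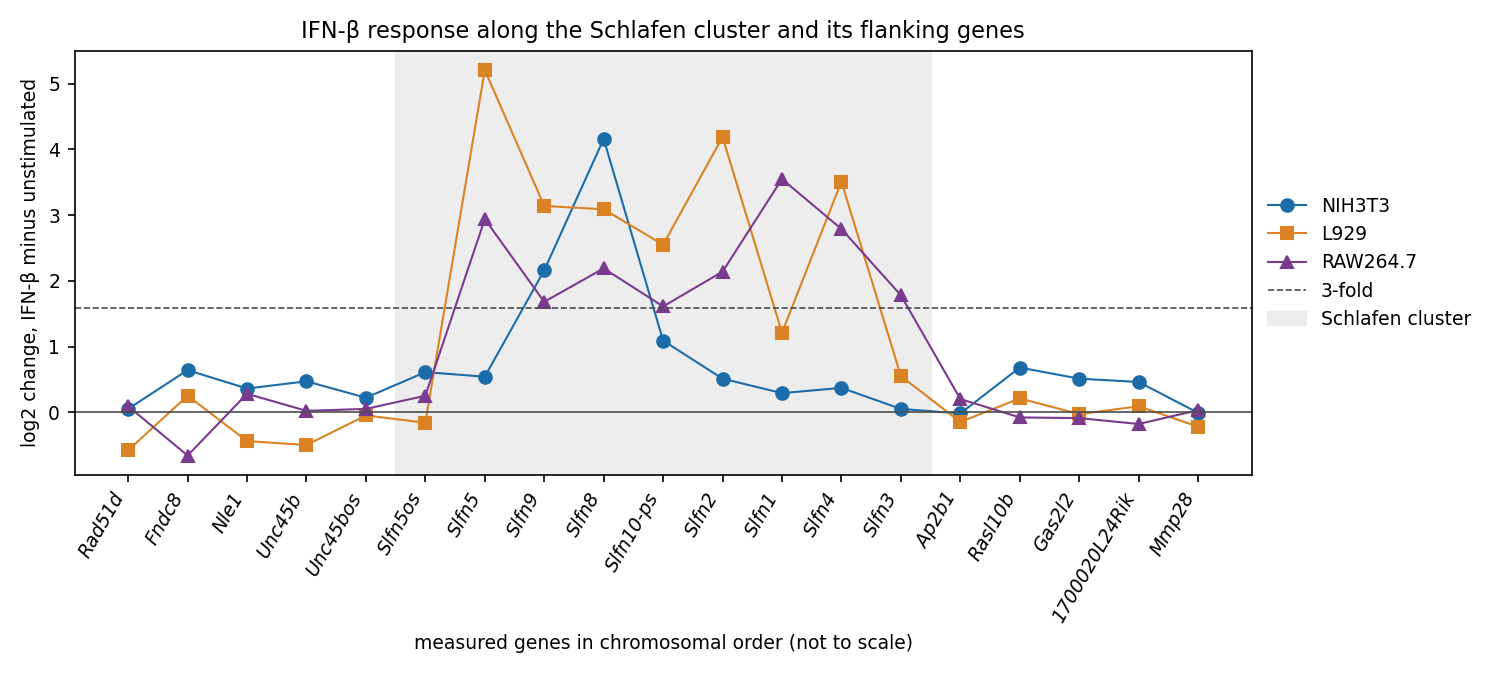
Log2 change with IFN-β in each line (vertical axis) for the measured genes of the Schlafen cluster (shaded) and 5 genes on each side, in chromosomal order and not to scale; the dashed line is 3-fold. All points above 3-fold lie within the cluster, and the NIH3T3 line passes 3-fold only at Slfn9 and Slfn8.

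Patterns were then compared by the distance between log2 levels over the 6 arrays after each gene's own mean was subtracted, a description with no test. Slfn2, Slfn4 and Slfn5 were the closest to each other, with distances of 0.99 between Slfn2 and Slfn4, 1.17 between Slfn2 and Slfn5 and 1.37 between Slfn4 and Slfn5. Slfn8 and Slfn9 were 3.00 apart, and the member nearest to Slfn9 was Slfn1, at 2.94. The widest distance was 5.31 between Slfn5 and Slfn9.

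Outside the family, the predicted gene Gm8995 was nearest to Slfn2 (0.55), Slfn4 (1.05) and Slfn5 (0.94), with log2 changes of 0.15 for NIH3T3, 4.42 for L929 and 2.76 for RAW264.7. Oas3, an oligoadenylate synthetase, followed for Slfn2 (1.12) and Slfn4 (1.66) and lay at 2.08 from Slfn5. Sp140, a nuclear body protein gene, came next for Slfn2 (1.44) and Slfn4 (1.77), and Ifih1, the RNA sensor MDA5, lay at 1.10 from Slfn5. Nearest to Slfn8 were Bst2 (1.04), which tethers budding virions, Rnf213 (1.26) and the RNA helicase gene Dhx58 (1.28). Parp10 (0.53), Daxx (0.60) and Irf1 (0.69) were nearest to Slfn9. The complement gene Cfb (0.91), Ms4a4c (1.10) and Trafd1 (1.24) were nearest to Slfn1.

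Slfn3 was nearest to genes with smaller changes in RAW264.7 than its own. These were Cd74 (1.15), the invariant chain of MHC class II, the DNA sensor gene Aim2 (1.22) and the chemokine gene Ccl9 (1.33). Their log2 changes in RAW264.7 were 0.39, 0.15 and 0.13, against 1.78 for Slfn3. All 3 genes and Slfn3 had their lowest levels in NIH3T3 and their highest in RAW264.7 on the stimulated and on the unstimulated arrays.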

How the data were processed

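The authors deposited 1 value per probe set and array on the log2 scale, made with RMA, per the submitters' processing notes. RMA is a standard method that corrects background, normalizes between arrays and summarises probes. Its version and settings and the array build were not given in the sources used here, and the range of the values gave the log base. Of 35557 probe sets the array annotation names 1 gene for 21789, 12147 have no gene and 1621 have several. A gene was read from its own probe set, taking the brightest by mean where a gene had several. Symbols followed Entrez IDs, matched for 21698. No low level was filtered out. Nothing says that arrays came from separate cultures.

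The change in a line subtracts its unstimulated from its stimulated array, and 3-fold, the series' own threshold, was used for counts. Line as a block and treatment were fitted together with limma 3.58.1 (R 4.3.3), leaving 2 residual degrees of freedom beside a prior of 7.87, and p-values were adjusted by Benjamini-Hochberg over 19938 genes; stimulated and unstimulated arrays are paired by the line they share. Interaction fits had priors of 7.21 for NIH3T3, 9.35 for L929 and an infinite one for RAW264.7. The infinite prior gives every gene the same standard error, 0.49 in that fit, whereas it differs by gene in the NIH3T3 and L929 fits. The fits were run on simulated data in which unchanged genes had no difference in response between lines beyond noise. The fit across lines made 6 false calls beside 184 true ones. For the interaction fits these were 38 and 144 for NIH3T3, 15 and 133 for L929, and 7 and 115 for RAW264.7. They recovered 80%, 70% and 36% of added log2 differences of 2, in the same order of lines. The simulated noise was drawn from the prior of the fit across lines, not from those of the interaction fits. These shares therefore do not tell how often such a difference would pass in the deposited values. Summaries and figures used Python 3.11.15 with matplotlib 3.10.9, numpy 2.4.6 and pandas 2.3.3. The number of arrays limits the precision.

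The members, gene lists, tests, alternatives and the naming rule (all members, all genes of the lists, and the 3 genes nearest in pattern to each member) were chosen with earlier results of these data known. Genes named outside the rule, in the closing section, were chosen after their values were seen. No protein sequences were used.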

Additional observations from a re-analysis of the deposited data

Results flagged for a closer look

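Slfn1 differed between lines by the interaction test. Its log2 change in RAW264.7 exceeded the mean change of the fibroblast lines by 2.80 ± 0.49 (SE, limma adjusted p = 2.51e-05), with changes of 3.55 in RAW264.7, 1.21 in L929 and 0.29 in NIH3T3. That SE was pooled over all genes and does not measure the spread of Slfn1 itself. Unstimulated levels were 4.12 in RAW264.7, 4.02 in L929 and 4.31 in NIH3T3. The 10 macrophage markers had median levels of 10.72 with IFN-β and 10.59 without it in RAW264.7, and their part in the result was not tested. Over the alternatives run for this difference the limma adjusted p ran from 2.09e-05 to 0.455.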

How the results depend on the processing

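Of the 7 members, 2 passed across lines, and 2 also did with arrays centred on their medians, quantile normalization, the filter at the median level (which removed Slfn1), the mean over probe sets and robust variances with a trend. With no replicate block 0 passed in limma, where all genes gave 2 calls and 309 at an unadjusted p under 0.05, and with all probe sets tested together 0 passed, where 14 calls and 1851 were counted. Leaving out a line gave 2 to 5 members, 5 without NIH3T3, 2 without L929 and 5 without RAW264.7, the last with 223 calls over all genes against 146. A variance trend added Slfn4. For a line against the others, the NIH3T3 fit called 1 member (Slfn4, limma adjusted p = 0.0462) with the filter against 0, and 0 to 5 genes over the settings, and the L929 fit called 2 with centred arrays against 0, and 9 to 85 genes. The filter removed Slfn1 before the RAW264.7 fit, so Slfn1 was not tested under that setting. The RAW264.7 fit lost its call of Slfn1 with centred arrays and after quantile normalization. Under both scalings it called 0 genes against 47 in limma, with 399 and 366 at an unadjusted p under 0.05. The L929 difference of Slfn8 was -0.09 as deposited, 0.04 with centred arrays and 0.05 after quantile normalization. In NIH3T3 the change of Slfn3 turned to -0.22 and -0.25 under the same 2 settings and that of Slfn1 to -0.02 after quantile normalization. At 5-fold 1 member passed in NIH3T3 and 3 in RAW264.7. The causes were not tested beyond what each setting removes. Low levels, such as those of Slfn5 in NIH3T3, were not set against background.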

Other observations

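Slfn2, Slfn4 and Slfn5 were 3 of 29 genes at least 3-fold higher with IFN-β in both L929 and RAW264.7 and under 3-fold in NIH3T3, 0.145% of all genes. Of the 29, 17 passed across the lines in limma at an adjusted p under 0.05, among them Il15 (0.00274), Gbp5 (0.00602) and Tnfsf10 (0.0122). The other 12 did not. Of the 29, 15 were also under 2-fold in NIH3T3, and 3 of these 15 passed, Trafd1, Ccrl2 and Kmo. The following 7 of the 15 were picked as examples after their values were seen. Oas1a, Oasl1 and Oas3 of the oligoadenylate synthetase family differed by 0.36, 0.61 and 0.29 on the log2 scale for NIH3T3, by 3.83, 3.23 and 3.12 for L929, and by 1.96, 1.91 and 1.77 for RAW264.7. For the cytokine gene Il18 the log2 differences were 0.31 for NIH3T3, 2.81 for L929 and 1.68 for RAW264.7. For the costimulatory receptor gene Cd40 they were 0.01, 2.25 and 2.63, for Ifi44l -0.30, 3.94 and 2.77, and for Ifi209, of the HIN-200 family, 0.56, 4.81 and 4.56, in the same order of lines. These 7 are among the 12 that did not pass, with limma adjusted p-values from 0.0559 for Ifi209 to 0.328 for Ifi44l. The 29 also held genes of other kinds, such as Pnp, of purine metabolism, and Gm8995 and BC147527, to which no role is given here. The group was formed from the changes themselves, so its makeup is a description and was not tested.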
